A study of Mus musculus with 48 samples.

Results

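Which RNAs are still recovered with Tnrc6a when Ago2 has been targeted was asked by setting HA immunoprecipitates (IP) of Ago2 knockout cells against HA immunoprecipitates of cells with no tag. The comparison rests on 24 of the 48 libraries of the series, namely 3 inputs and 3 IPs of each of these 2 genotypes in each of experiments 3 and 4. For each gene, the log2 ratio of IP to input in untagged cells was subtracted from the same ratio in Ago2 knockout cells, within each experiment, and the 2 differences were averaged. This quantity is called log2 recovery here. A value of 0 means an equal IP to input ratio in both genotypes, and 1 means a 2-fold higher ratio in the knockout. It rests on shares of each library relative to the other genes. A loss of bound RNA and a gain of other RNAs therefore cannot be told apart. For the same reason a value of 0 or below does not show that an RNA was unbound. Below, not recovered means not higher than in untagged cells on this relative scale. The libraries were chosen by their labels, and no measured value entered the choice.

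All cells were mouse embryonic stem cells (129S6/SvEvTac), grown on gelatin in medium with fetal bovine serum and LIF. Both genotypes carried the GFP_5xT71BS reporter and a stably transfected FLAG-Cas9::T2A::Blasticidin cassette. The untagged cells had no further allele named in their labels. The knockout cells also carried HA-AVI-Tnrc6a, a tagged Tnrc6a gene, together with Ago2-/-, and whether a genotype is 1 clone or several is not given. HA-AVI-Tnrc6a cells with no Ago2 lesion in their label (12 libraries) are used below only as the reference for what changes with Ago2. The replicates came from triplicate dishes, so that p-values measure the spread between these dishes within an experiment.

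Tnrc6a is one of the mouse GW182 proteins, large scaffold proteins that bind Argonaute and recruit the CCR4-NOT and PAN deadenylase complexes to an mRNA. Argonaute proteins carry a microRNA whose seed, bases 2 to 8 from the 5′ end, pairs with the target. Mouse embryonic stem cells are known for the miR-290 and miR-302 clusters, which share a seed, and for low let-7, whose maturation the Lin28 proteins block. Ago2 is one of 4 mouse Argonautes, so that a knockout of Ago2 leaves Ago1, Ago3 and Ago4 genes in place.

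Mature sequences of the 2 seed families are given because the targets reported for them are the groups described first. They come from RefSeq (GRCm38.p6) and the seed is in capitals.
mmu-miR-291a-3p (chr7:3218968-3218989, + strand): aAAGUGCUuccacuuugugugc
mmu-miR-294-3p (chr7:3220691-3220712, + strand): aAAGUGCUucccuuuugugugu
mmu-miR-295-3p (chr7:3220815-3220837, + strand): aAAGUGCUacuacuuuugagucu
mmu-miR-302b-3p (chr3:127545275-127545297, + strand): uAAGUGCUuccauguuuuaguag
mmu-let-7a-5p (chr13:48538239-48538260, - strand): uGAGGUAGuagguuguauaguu
The first 4 have the seed AAGUGCU in common, and let-7a has GAGGUAG. Small RNAs were not sequenced in these libraries, so the microRNAs themselves were not measured, and target sites were not searched.

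Library totals ran from 11471544 to 19595405 counts in experiment 3 and from 25966222 to 73845953 in experiment 4, so that experiment 4 gives the smaller counting error. No 2 replicates agreed within sampling noise. Levels are given as CPM, counts scaled to the size of the library. The summed level of 6 embryonic stem cell markers was 4890 to 5989 in untagged and 5667 to 6171 CPM in knockout inputs. Summed endoderm markers were 11.8 to 38.8 CPM in untagged and 6.84 to 9.44 CPM in knockout inputs, and these ranges did not overlap. The 3 listed fibroblast markers summed to 25.6 to 31.0 and 20.5 to 29.5 CPM, while Col3a1, Postn and Dcn are not in the table. Trophoblast markers, 3 of 5 in the table without Cdx2 and Elf5, summed to 60.9 to 84.3 in untagged and 77.2 to 121 CPM in knockout inputs, with overlapping ranges. Neural ectoderm markers were at 54.2 to 67.3 and 53.3 to 68.8 CPM, and mesoderm markers at 2.53 to 4.13 and 2.59 to 4.99 CPM. Some sums rested largely on single genes. Over the inputs of both genotypes the trophoblast marker Tfap2c lay at 40.8 to 110 CPM and the fibroblast marker Thy1 at 18.6 to 26.6 CPM. The neural marker Otx2 lay at 26.8 to 50.9 CPM. The sums therefore do not by themselves give amounts of other cell types. What part the marker levels have in the results was not tested.

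The tagged gene itself gave the largest recovery of all genes tested. Tnrc6a (chr7:123031101-123195296, GRCm38.p6) was at 98.3, 102 and 97.3 CPM in the knockout inputs of experiment 3 and at 58807, 41114 and 51684 CPM in the matching IPs. In experiment 4 its knockout inputs held 123, 130 and 120 CPM and the IPs 12689, 11211 and 15861 CPM. Untagged IPs lay at 56.6, 79.4 and 77.4 CPM in experiment 3 and at 102, 92.2 and 105 CPM in experiment 4. Every knockout IP was therefore far above every untagged IP, and the mRNA was near its input level on the beads of untagged cells. Its log2 recovery was 7.88 (SE 0.129, edgeR quasi-likelihood adjusted p = 7.21e-25). The value was 9.09 in experiment 3 and 6.68 in experiment 4.

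The Ago2 mRNA checked the other label, although a count over the whole gene does not show the lesion. Knockout inputs held 97.1, 92.8 and 93.9 CPM in experiment 3 and 136, 130 and 124 CPM in experiment 4. Untagged inputs held 161, 220 and 228 CPM, and 378, 334 and 343 CPM, so that every knockout input was below every untagged input of its experiment. The remaining Ago2 RNA reached 175, 172 and 197 CPM in the knockout IPs of experiment 3 and 161, 154 and 166 CPM in those of experiment 4. Its log2 recovery was 1.06 (SE 0.115, edgeR adjusted p = 1.70e-08). The direction depends on the inputs: between the IPs alone, the difference was -0.18 (edgeR adjusted p = 0.0445).

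**Figure D1:**
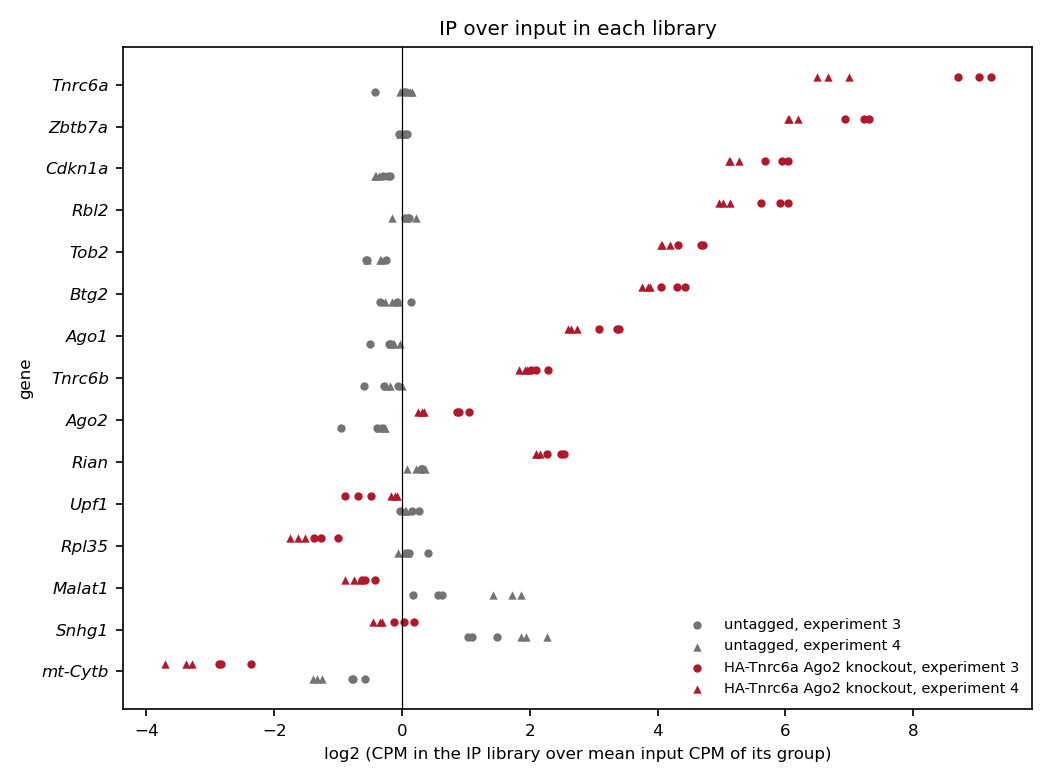
The horizontal axis gives log2 of the CPM in each IP library over the mean input CPM of its group, with untagged cells in grey and Ago2 knockout cells in red, experiment 3 as circles and experiment 4 as triangles. For Tnrc6a, Zbtb7a, Cdkn1a, Rbl2, Tob2 and Btg2 the red points lie far right of the grey points, while for Malat1 and Snhg1 they lie left of the grey points, which are right of zero.

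Over the whole table, 19982 of 20171 genes were tested and recovery was widespread in both directions. Adjusted p was under 0.05 for 6286 genes with higher recovery, which is 31.5% of genes tested, and for 6638 genes with lower recovery, 33.2%. At least a 2-fold difference was reached by 3317 genes upward (16.6%) and 1912 downward (9.57%). The median log2 recovery of all genes was -0.07. Genes called in either direction made up 64.7%. These shares are the background for every count of a gene list below. Against a 2-fold null (glmTreat) 2372 genes were higher and 515 lower.

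The genes recovered at least 2-fold filled a large part of the IP. They made up 37.4% ± 2.66 (SD, n = 3) of all counts in the knockout IPs of experiment 3 and 34.2% ± 0.606 (SD, n = 3) in those of experiment 4. In untagged IPs the same genes held 6.80% and 9.30% of counts. As these genes were selected by this contrast, the shares describe the libraries and are no test.

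**Figure D2:**
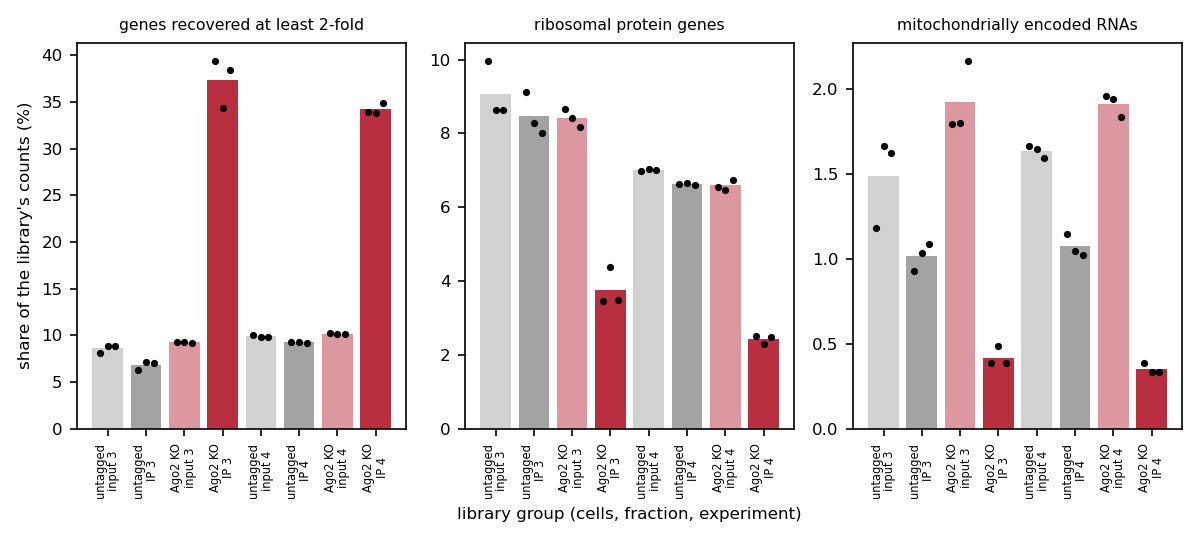
Bars give the mean share of a library's counts (%) taken by each class, with 3 dots for the 3 libraries, in untagged (grey) and Ago2 knockout cells (red), pale for inputs and dark for IPs, labelled by experiment 3 or 4. The knockout IPs stand out in all 3 panels, high for the genes recovered at least 2-fold and low for ribosomal protein genes and mitochondrially encoded RNAs.

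Transcripts reported as targets of the miR-290 and miR-302 seed family were recovered in the knockout without exception. All 19 entries of the list (18 genes, Lats2 having 2 entries in the table) were at least 2-fold higher over untagged cells, with a median log2 recovery of 3.17 and a range from 1.01 to 5.87. The list was put together from reports on this family, with earlier results of these data known. Cdkn1a, the p21 inhibitor of cyclin-dependent kinases (chr17:29090979-29100722), led the list. Its knockout IPs held 2961, 2300 and 2756 CPM in experiment 3 and 1269, 1254 and 1393 CPM in experiment 4. Untagged IPs held 36.9 to 39.8 CPM and 31.6 to 33.0 CPM, with inputs of all groups between 35.3 and 48.8 CPM. Log2 recovery was 5.87 (SE 0.0827, edgeR adjusted p = 7.17e-36), and the groups did not overlap.

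Rbl2, the pocket protein p130 that restrains E2F, was the next highest. It was at 628, 469 and 574 CPM in knockout IPs of experiment 3 and at 349, 333 and 374 CPM in experiment 4. Untagged IPs lay between 11.3 and 14.6 CPM over both experiments, so the groups were again apart. Its log2 recovery was 5.41 (SE 0.103, edgeR adjusted p = 4.14e-32). Casp2, a caspase of the intrinsic death pathway, followed with 4.57. The lowest members were Mbnl2, a splicing regulator, at 1.01 and Akt1, a growth-factor signalling kinase, at 1.21, and both passed the test.

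Targets reported for Trim71, an RNA-binding protein of stem cells, overlapped this list and were recovered as a group. All 7 were at least 2-fold higher, with a median of 3.44, and 4 of them (Cdkn1a, Rbl2, E2f7 and Mbnl2) also stand in the miR-290 and miR-302 list. Mbnl1, a splicing regulator that is not in the microRNA list, had a log2 recovery of 3.83, and Plxnb2, a semaphorin receptor, one of 1.94.

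Reported let-7 targets were recovered less uniformly. Of 17 tested, 11 were higher and 1 was lower, with a median of 1.15. Mycn, a Myc family transcription factor, was highest at 2.85, with 1374, 1267 and 1676 CPM in the knockout IPs of experiment 3 against 122, 138 and 141 CPM in untagged IPs. In experiment 4 it was at 1050, 1073 and 1125 CPM against 106, 101 and 103 CPM, so that its groups were fully apart. Ccnd1, encoding cyclin D1, had a log2 recovery of 2.13, and Lin28a, which blocks let-7 maturation, one of 1.78. At the other end, Igf2bp2 was at -0.43 and Myc at -0.12, of which only Igf2bp2 passed the test.

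The silencing machinery's own mRNAs were recovered. All 7 Argonaute and GW182 genes were higher, with a median of 2.26, against 31.5% of all genes. The 7 include the tagged gene Tnrc6a and the targeted gene Ago2, whose direction depends on the inputs. Ago1 had 1135, 917 and 1110 CPM in knockout IPs of experiment 3 and 678, 656 and 721 CPM in experiment 4, where untagged IPs lay between 56.7 and 76.9 CPM. Its log2 recovery was 3.18 (SE 0.0741). Tnrc6b reached 2.26 and Tnrc6c 1.56. Ago3 was only slightly recovered, at 0.41, and the call was lost in experiment 4 alone (0.17, edgeR adjusted p = 0.214). Ago4 reached 2.80, but its IPs held at most 5.84 CPM, so that its size is poorly fixed (SE 0.391).

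Among deadenylation genes, the highest 4 were Tob and Btg genes, which encode antiproliferative proteins that bind the CCR4-NOT deadenylase. Of 20 genes of CCR4-NOT, PAN and poly(A)-binding proteins, 15 were higher and 4 lower, with a median of 0.53. Tob2 was at 505, 385 and 490 CPM in the knockout IPs of experiment 3 and at 246, 249 and 272 CPM in experiment 4. Untagged IPs held 10.7 to 14.2 CPM, and log2 recovery was 4.79 (SE 0.0982, edgeR adjusted p = 3.32e-31). Btg1 followed with 4.31 and Btg2 with 4.19. Tob1 (4.09), Btg3 (1.88) and the deadenylases Cnot6l (3.43) and Cnot6 (3.09) were singled out after their values were seen. At the low end stood Cnot10 with -0.68 and Pan2 with -0.60, both lower by the test.

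Decapping genes had 8 of 14 members higher, 1 lower and a median of 0.53. Dcp1b and Dcp1a, cofactors of the decapping enzyme, had log2 recoveries of 2.96 and 1.77, and Lsm14b, a P-body protein, one of 1.72. Its paralog Lsm14a was lower at -0.47. Of 10 microRNA biogenesis genes 5 were higher and 3 lower, with a median of 0.26, led by Lin28a and by Lin28b at 1.15. Dicer1, which cuts microRNA precursors, was at 0.59, while Dgcr8, the partner of Drosha, was at -0.58.

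Factors of nonsense-mediated decay (NMD), which removes mRNAs with premature stop codons, were not a recovered group. Of 10, 4 were higher and 5 lower, and the median was -0.16. The paralogs Upf3a and Upf3b, which join Upf1 and Upf2 in the NMD machinery, were at -1.04 and -0.96. Upf1 itself was at -0.48 (SE 0.0773, edgeR adjusted p = 1.31e-06), at -0.82 in experiment 3 and at -0.14 in experiment 4. Transcripts known as NMD substrates were split, with 7 of 21 higher and 11 lower. The higher ones were led by the stress-response genes Chac1 (3.69), Atf3 (2.48) and Trib3 (1.94), and the lower ones by the snoRNA hosts Snhg1 and Snhg12. The list's median of -0.22 lies between these groups.

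**Figure D3:**
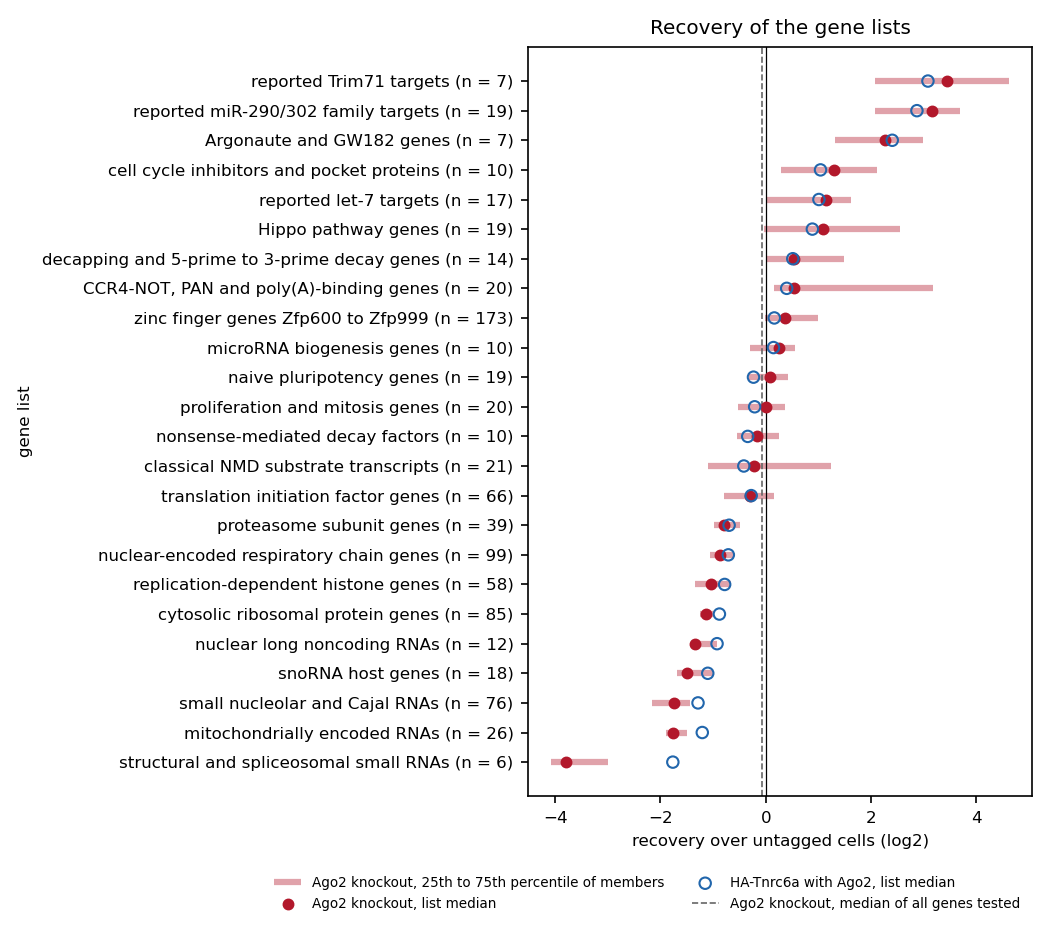
The horizontal axis gives log2 recovery over untagged cells (dashed line, median of all genes), with the Ago2 knockout median of each list as a red dot, the 25th to 75th percentile of its members as a bar, and the median for HA-Tnrc6a cells as an open blue circle. Both sets of medians use the same untagged libraries, and the knockout medians run from 3.44 for reported Trim71 targets to -3.80 for structural RNAs.

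Among protein-coding genes with an average log2 CPM of at least 3, Zbtb7a had the largest recovery after Tnrc6a. Zbtb7a, a zinc finger repressor (chr10:81135225-81152222), had a log2 recovery of 6.64 (SE 0.0803, edgeR adjusted p = 9.87e-38). Its knockout IPs held 4701, 3610 and 4456 CPM in experiment 3 and 1727, 1700 and 1888 CPM in experiment 4, against 43.0 to 72.0 CPM in untagged IPs. The inputs were lower in the knockout (24.7 to 32.7 CPM) than in untagged cells (44.0 to 73.2 CPM). A lower knockout input raises log2 recovery, but the IPs alone were also far apart. Zfp367, another zinc finger gene, was at 6.32 and Zfp827 at 5.90. Gdf11, a TGF-beta family ligand, was at 5.77.

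Tagap and Tagap1, genes of a GTPase-activating protein family, were at 6.34 and 6.24. Tagap overlaps Gm1604a (5.94), how the counting treated strand is not given in the sources used here, and Tagap and Tagap1 are near-identical, so reads of these loci may be split or shared. Of transcripts without a protein-coding entry in the reference, Gm45846 was at 7.46 and Gm47513 at 6.98. Gm45846 had 0 to 11 counts in untagged IPs of experiment 3, so its size there is loosely fixed. Gm49719 was at 6.23.

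Cell cycle inhibitors and pocket proteins were recovered in part, with 6 of 10 higher, 1 lower and a median of 1.30. Besides Cdkn1a and Rbl2, the pocket protein gene Rbl1 had a log2 recovery of 2.22, the p27 inhibitor gene Cdkn1b one of 1.83, and the retinoblastoma gene Rb1 one of 1.08. Cdkn1c, encoding the p57 inhibitor, was lower at -0.57. Proliferation and mitosis genes, in contrast, were balanced at 9 higher and 9 lower of 20. Aurkb, a mitotic kinase, was at 1.46. Mki67, the Ki-67 proliferation antigen, was at -1.78 and Incenp, a chromosomal passenger protein gene, at -1.76.

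The low values of Mki67 and Incenp went with high bead background. This background is subtracted in log2 recovery, so background and recovery are not independent. In untagged cells the log2 ratio of IP to input was 2.72 for Mki67 and 3.68 for Incenp, and in the knockout it was 0.95 and 1.92. Both RNAs were thus above input on the beads of both genotypes and lower in the tagged one.

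Hippo pathway genes, a list that also holds Yap1 itself and the Tead genes, had 13 of 19 entries higher and 5 lower, with a median of 1.08. The kinase gene Lats1 was at 725, 552 and 712 CPM in the knockout IPs of experiment 3 and at 429, 418 and 469 CPM in experiment 4. Untagged IPs held 24.2 to 43.9 CPM, and log2 recovery was 4.14 (SE 0.107, edgeR adjusted p = 1.13e-24). The 2 entries of Lats2, its paralog, were at 3.46 and 3.02. Amot, a Yap1-binding angiomotin, was at -0.92 over both experiments but at -0.15 (edgeR adjusted p = 0.625) in experiment 4 alone. Stk3, the kinase upstream of Lats1, was lower at -0.63.

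Naive pluripotency genes were mixed, with a median of 0.08 against -0.07 over all genes. Of 19, 9 were higher (47.4%, against 31.5% of all genes) and 5 lower (26.3%, against 33.2%). With library totals as the scaling 9 were lower, and the median was -0.07, against -0.22 over all genes. Klf2, a Krüppel-like factor gene, was highest at 2.89, followed by the T-box factor gene Tbx3 at 1.68. Klf2 knockout IPs held 5238, 4563 and 5735 CPM in experiment 3 and 4077, 4030 and 4552 CPM in experiment 4, where untagged IPs held 339 to 416 CPM. Dppa5a and Dppa4, genes named for their expression in pluripotent cells, were lower, at -1.24 and -0.87.

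The zinc finger genes numbered Zfp600 to Zfp999, a set taken by symbol, were more often higher than lower. Of 173 tested, 90 were higher (52.0%, against 31.5% of all genes) and 17 lower, with a median of 0.38. Zfp768 at 5.22 and Zfp763 at 3.85 followed Zfp827. Zfp692 was lowest at -0.87, and Zfp612 was at -0.72, which moved to -0.02 with IPs alone. The number of lower members was 5 in experiment 3 alone and 30 in experiment 4 alone or with library totals as the scaling. In these fits 4481, 6457 and 7980 of all genes were lower.

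Ribosomal protein mRNAs, which are short and highly translated, were not recovered. Of 85 genes, 83 were lower and 1 higher, against 33.2% of all genes lower, and the median was -1.12. Rpl35, a gene of the large subunit that overlaps Wdr38 in the reference, held 282, 363 and 303 CPM in knockout IPs of experiment 3 and 163, 150.3 and 177 CPM in experiment 4. Untagged IPs held 988, 779 and 804 CPM, and 564, 503 and 536 CPM, so that the groups did not overlap. Its log2 recovery was -1.51 (SE 0.113, edgeR adjusted p = 1.58e-11). The exception was Rps27 at 0.27, which was at 0.54 in experiment 3 and at -0.01 in experiment 4. Rpl13, second highest, was at -0.19.

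Nuclear-encoded respiratory chain genes were lower in 93 of 99 cases with a median of -0.87, and proteasome subunit genes in 35 of 39 with a median of -0.78. Against a 2-fold null (glmTreat) 7 and 1 of these were lower, where 515 of all genes were. Translation initiation factor genes were mixed, with 12 of 66 higher, 32 lower and a median of -0.31.

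RNAs encoded in mitochondria were not recovered either. Of 26 entries 22 were lower and 0 higher, with a median of -1.76. Every entry had a value below 0. The cytochrome b RNA mt-Cytb was at 411, 567 and 403 CPM in knockout IPs of experiment 3 and at 257, 205 and 276 CPM in experiment 4. Untagged IPs held 1153, 1173 and 1331 CPM, and 786, 867 and 820 CPM, again with no overlap. Its log2 recovery was -2.02 (SE 0.157, edgeR adjusted p = 1.4e-09), and mt-Atp8 had -2.07. Of the 4 that did not pass the test, mt-Nd2 was at -0.23 (edgeR adjusted p = 0.285) and turned to 0.28 with IPs alone. The other 3, named after their values were seen, were the low-count transfer RNA genes mt-Ty (-1.24), mt-Tw (-1.43) and mt-Td (-1.49).

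Nuclear and nucleolar RNAs were low against a high bead background. The untagged ratio is itself subtracted in log2 recovery, so the following values are its parts and no separate observation. In untagged cells, the median log2 ratio of IP to input was 1.14 over 76 small nucleolar and Cajal body RNAs, 0.80 over 18 snoRNA host genes and 0.56 over 12 nuclear long noncoding RNAs, against -0.06 over all genes. In the knockout the same medians were -0.66, -0.67 and -0.50. By these medians, untagged beads held the RNAs above input and knockout beads below it.

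Small nucleolar and Cajal RNAs were lower in 61 of 76 cases with a median log2 recovery of -1.75, and snoRNA host genes in 16 of 18 with a median of -1.49. Malat1, an abundant RNA of nuclear speckles, held 94.2, 108 and 96.9 CPM in the knockout IPs of experiment 3 and 58.8, 62.9 and 53.5 CPM in experiment 4. Untagged IPs held 187, 243 and 253 CPM, and 475, 349 and 431 CPM. All knockout IPs were below all untagged IPs, and log2 recovery was -1.71 (SE 0.0986, edgeR adjusted p = 1.91e-15). Xist, the silencing RNA of the X chromosome, was at -1.57 and Neat1, the scaffold of paraspeckles, at -0.93. Among host genes Snhg1 was at -1.78 and Snhg12 at -1.76, whereas Snhg15 was at -0.22 and Snhg5 at -0.98.

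One nuclear long noncoding RNA went the other way. Rian, an imprinted noncoding RNA of the Dlk1-Dio3 region (chr12:109603945-109661716), had 2010, 1670 and 1955 CPM in knockout IPs of experiment 3 and 1119, 1119 and 1172 CPM in experiment 4. Untagged IPs held 326 to 328 CPM and 232 to 282 CPM, and knockout inputs 252 to 353 CPM. Every knockout IP was above every untagged IP, and log2 recovery was 2.02 (SE 0.0654, edgeR adjusted p = 2.23e-25). Meg3 and Mirg of the same region, singled out after their values were seen, were at -1.42 and -1.41. Rian overlaps many small RNA genes in the reference, so that part of its counts may belong to them.

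Structural small RNAs were all lower over both experiments, but on few counts and without passing the test for experiment 4 within the fit of both. The 6 entries had a median of -3.80, with -5.41 in experiment 3 and -2.08 in experiment 4, where edgeR adjusted p ran from 0.111 to 0.395. Rn7sk, the RNA that holds the elongation factor P-TEFb inactive, had 4 to 12 counts per knockout IP and 8 to 70 per untagged IP, and was at -4.75 in experiment 3 and at -0.87 in experiment 4. Rpph1, the RNase P RNA, was at -3.15 and -1.53. The 6 entries held 0.00211% ± 0.00105 (SD, n = 3) of counts in knockout inputs of experiment 3 and 0.000743% ± 0.000507 in untagged inputs. A higher knockout input lowers log2 recovery. In experiment 4 these shares were 0.000888% and 0.00110%. Replication-dependent histone genes, whose mRNAs end in a stem-loop and carry no poly(A) tail, had 34 of 58 lower and 0 higher by edgeR, with a median of -1.03 and every value below 0. Their number called lower was 9 in experiment 3 alone and 21 in experiment 4 alone, where 4481 and 6457 of all genes were lower. H1f2, the highest of those measured well enough to be named, was at -0.12 and did not pass the test (edgeR adjusted p = 0.457).

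By the gene types of the reference, protein-coding genes had 5353 of 14496 higher and 4581 lower, with a median of 0.03. Long noncoding RNAs had 252 of 1151 higher and 283 lower. Annotated pseudogenes had 220 of 1924 higher and 984 lower with a median of -0.65, and many share reads with the genes they copy. Of 71 microRNA gene entries, which in these libraries can hold host or primary transcript reads, 18 were higher and 26 lower.

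Recovery also went with gene length. In genes of at least 300 and under 1000 bases the median log2 recovery was -0.59, in those of at least 2000 and under 4000 bases it was -0.08, and in those of 8000 bases or more it was 0.26. Within protein-coding genes the corresponding medians were -0.76, -0.07 and 0.27. The part of length in the values of the lists was not tested.

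The 2 experiments gave the same sign for 98.1% of the genes called in the average. A call in that average already favours an equal sign in both, so this share is no separate test of agreement. The difference between the experiments passed the test for 1228 genes, 6.15% of those tested. The snoRNA host genes were the list with the largest share of such members, 12 of 18, with medians of -0.97 in experiment 3 and -1.74 in experiment 4. Bead background moved with this, but it is subtracted in log2 recovery and so is no separate observation. For Snhg1, untagged IPs held 314, 231 and 240 CPM over inputs of 106 to 119 CPM in experiment 3. In experiment 4 they held 418, 315 and 331 CPM over inputs of 84.7 to 89.1 CPM. For miR-290 and miR-302 targets the list medians were 3.18 and 3.09.

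**Figure D4:**
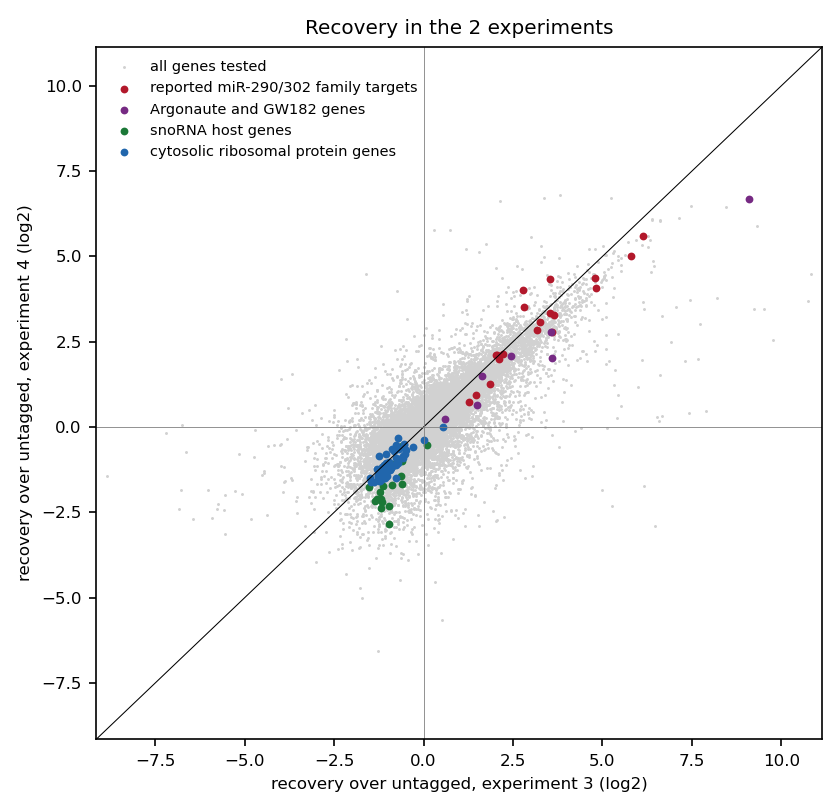
Each dot is a gene, with its log2 recovery in experiment 3 on the horizontal and in experiment 4 on the vertical axis, and the diagonal marks equality. Argonaute and GW182 genes are purple. Reported miR-290 and miR-302 targets (red) lie high on both axes and ribosomal protein genes (blue) low on both, while most snoRNA host genes (green) lie below the line.

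Among transcripts without a protein-coding entry and with an average log2 CPM of at least 3, the lowest 3 calls rested on experiment 3. AY036118, Gm42418 and CT010467.1 had log2 recoveries of -2.36, -2.28 and -2.24. For AY036118, which overlaps Rn18s-rs5 in the reference, untagged IPs of experiment 3 held 2188, 7220 and 1208 CPM, whereas those of experiment 4 held 817, 711 and 850 CPM. In a separate fit of experiment 4 alone none of the 3 passed the test, with values of -0.60, -0.60 and -0.55. Gm26917 was at -2.11, and its untagged IPs were above its knockout IPs in experiment 3 but overlapped them in experiment 4.

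Set against HA-Tnrc6a cells, recovery in the knockout differed for fewer genes. Of 19995 tested, 1817 were higher in the knockout (9.09%) and 2450 lower (12.3%), together 21.3%. This comparison uses the same knockout libraries as the one above, so their values are given side by side. The number called, in a fit added after seeing the data, was 1623 in experiment 3 alone, which has the lower depth, and 3463 in experiment 4 alone.

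Ago2 was the Argonaute or GW182 gene with the largest difference. Its log2 recovery over untagged cells was 1.06 in the knockout and 2.40 in HA-Tnrc6a cells, where 29.8% of genes were higher and 32.2% lower over untagged cells. The difference, from a fit without the untagged libraries, was -1.35 (SE 0.0671, edgeR adjusted p = 1.19e-16). Ago3 differed by -0.66 and Ago1 by -0.29, both passing the test. For Tnrc6a the difference was 0.11 (SE 0.165, edgeR adjusted p = 0.716), with 0.40 in experiment 3 and -0.19 in experiment 4.

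Reported miR-290 and miR-302 targets did not lose recovery as a group. Of 19, 4 were higher and 2 lower in the knockout, and the median difference was 0.13, against -0.04 over all genes. For Cdkn1a log2 recovery over untagged cells was 5.87 in the knockout and 5.80 in HA-Tnrc6a cells, and the fitted difference was 0.07 (SE 0.105, edgeR adjusted p = 0.718). The called members include Tgfbr2 (0.72), Dkk1 (1.43, on low counts) and Ei24 (-0.76), singled out after their values were seen, and Akt1 (-0.50). Of 17 let-7 targets 7 were lower and 2 higher, with a median of -0.12. Among them Mycn (0.53) and Myc (0.70) were higher, and Ccnd1 (-0.29) and Trim71 (-0.48, singled out likewise) were lower.

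Several classes that were low over untagged cells had members lower again without Ago2 than with it. Ribosomal protein genes were lower in 51 of 85 cases with a median difference of -0.28, snoRNA hosts in 9 of 18 with -0.31, and mitochondrial RNAs in 11 of 26 with -0.53. In experiment 3 alone these counts were 3, 0 and 2, and in experiment 4 alone 64, 11 and 12, while the 3 medians were negative in both. Of all genes, 989 were lower in experiment 3 alone and 1910 in experiment 4 alone. The counts of these classes thus rest mainly on experiment 4. Zinc finger genes Zfp600 to Zfp999 had more higher than lower members, with 48 of 173 higher and 9 lower. In experiment 3 alone 20 of them were higher, where 634 of all genes were. Tagap (0.91), Zfp763 (0.79) and Zbtb7a (0.41) were higher in the knockout, and Zfp768 was lower (-0.83), all passing the test.

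**Figure D5:**
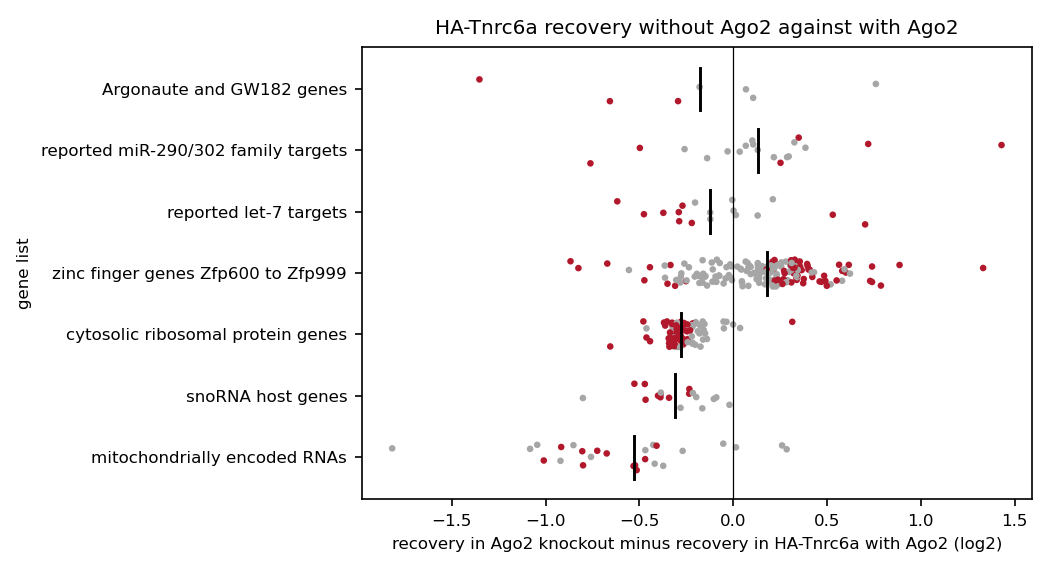
The horizontal axis gives log2 recovery in the Ago2 knockout minus that in HA-Tnrc6a cells with Ago2; each dot is a gene, red where edgeR's adjusted p was under 0.05, and the black bar is the list median. Ago2 is the leftmost dot of the top row at -1.35, and the ribosomal protein, snoRNA host and mitochondrial lists have medians left of zero.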

How the data were processed

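RNA of inputs and HA immunoprecipitates was sequenced after a stranded total RNA library kit, per the labels' protocols. The authors deposited raw read counts per gene and library, with no normalization. Per the submitters' processing notes, bcl2fastq 2.20 and STAR 2.7.3a were used with GRCm38/mm10. The counting tool, annotation and strand setting are not given in the sources used here. Gene length in bases stands in the same table. Its 48 further value columns, scaled by the authors, were not used. Columns numbered 1 to 3 were taken as experiment 3 and the higher numbers as experiment 4. The column names do not state the experiment.

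Counts of the 24 libraries were fitted with edgeR 4.0.16 (limma 3.58.1, R 4.3.3), with 1 coefficient per group, TMM scaling, filterByExpr with a minimum count of 10 and the robust quasi-likelihood test, two-sided, with Benjamini-Hochberg adjustment over all genes at 0.05. CPM values use TMM over all 48 libraries. The fit was tested on simulated data. Counting error alone sets the depth limits, and PCR duplicates were not marked by molecular identifiers. The table gave symbols for 16427 genes and the reference tables for 3725. RefSeq GRCm38.p6, the source of coordinates, held 17958 of the genes.

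Genes named are Tnrc6a, Ago2, Upf1, the Argonaute and GW182 genes, protein-coding and other genes with the largest change in each direction (average log2 CPM of at least 3), and the highest and lowest members of 24 lists. A few genes that this rule names are not reported here. The members and lists were chosen with earlier results of these data known. Alternatives were RLE size factors, library totals, no count filter, a minimum count of 50, DESeq2 1.42.0, a replicate block, 1 experiment alone, IPs alone, all 48 libraries, glmTreat, and each library left out. For the comparison with HA-Tnrc6a, 1 experiment alone was added after seeing the data.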

Additional observations from a re-analysis of the deposited data

Results flagged for a closer look

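Of 103 gene symbols considered, 27 had a log2 recovery that differed between experiments 3 and 4 by the interaction test (edgeR quasi-likelihood, adjusted p under 0.05), where 6.15% of all genes did. Many of these symbols were picked for large values and a minimum level, and some after their values were seen. The count and the share over all genes therefore do not concern like sets. Values are experiment 4 minus experiment 3 on the log2 scale.

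The difference was negative for 21. It was -2.42 for Tnrc6a, -0.85 for Ago2 and -0.77 for Ago1. Among nuclear RNAs and snoRNA hosts it was -1.41 for Malat1, -1.21 for Snhg1, -1.18 for Neat1, -1.06 for Gas5, -0.79 for Snhg12, -0.69 for Meg3 and -0.63 for Snhg15. Among decay and deadenylation genes it was -1.06 for Cnot6l, -0.78 for Cnot6, -0.65 for Dcp1a and -0.52 for Btg3. Of other recovered mRNAs, Zbtb7a differed by -0.998, Zfp827 by -0.86, Lats1 by -0.80, Mbnl1 by -0.80, Rbl2 by -0.79 and Cdkn1a by -0.54. Rps27 differed by -0.55.

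The difference was positive for 6, with 0.69 for Upf1, 1.35 for Incenp, 1.67 for Amot, 3.49 for Gm42418, 3.50 for CT010467.1 and 3.65 for AY036118. For all 6, recovery was negative and farther from 0 in experiment 3.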

How the results depend on the processing

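Over untagged cells, 11 alternatives and 24 fits without 1 library were run; the authors' scaled columns were not mapped to libraries, so the planned scaling by them was not run, nor was the planned count of seed sites. Against a 2-fold null (glmTreat) 2887 genes were called, 2372 higher and 515 lower, so that 82.2% of the called were higher against 48.6% in the reported fit. Scaling by library totals gave 2873 genes at least 2-fold lower and moved the median of all genes from -0.07 to -0.22. Without 1 library, 12594 to 13017 genes were called, 6076 to 6279 higher and 6406 to 6941 lower, with 3199 to 3391 at least 2-fold higher and 1791 to 2198 at least 2-fold lower. The difference between experiments was then called for 843 to 1631 genes. Of its calls, 47.9% were higher in experiment 4, against 36.2% with RLE size factors and 17.3% with library totals.

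Against HA-Tnrc6a, experiment 3 alone called 1623 genes, 634 higher and 989 lower, where experiment 4 alone called 3463, 1553 higher and 1910 lower. With experiment 3 alone the median of the histone genes turned from -0.27 to 0.088. The cause was not tested. Without 1 library, 3849 to 4723 genes were called, 1638 to 2050 higher and 2035 to 2746 lower.

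Of 104 entries of genes named, 71 kept direction and call throughout. Rpl13 (0.037) and Snhg15 (0.12) reversed in experiment 3 alone, Rps27 (-0.067) in experiment 4 alone, and Ago2 (-0.18) and mt-Nd2 (0.28) with IPs alone. The cause was not tested. The fit with a replicate block called 12944 genes, 6322 higher and 6622 lower, and 4444 against HA-Tnrc6a. Same-numbered libraries had a mean correlation of deviations of 0.0589 (-0.289 to 0.505), so the numbers were not taken to pair them, although 18 of 24 libraries correlated best with their own number, a hint from the data only. Low counts limit Ago4, Dkk1 and the structural RNAs. The share of counts of the structural RNAs also varied between replicates, with 0.00241%, 0.00298% and 0.000953% in the knockout inputs of experiment 3.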
